A study of Homo sapiens with 12 samples.

Results

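The genes described here are 45 nucleolar and ribosome biogenesis genes, listed by symbol as targets of the transcription factor MYC. They were picked out by symbol from the 60663 genes of the count table, and each symbol matched 1 Ensembl gene. All 45 were among the 20714 genes that passed a filter on low counts, and the lowest count of any of them in any library was 31. RNA was measured by sequencing total RNA of RCC4 cells, a line of clear cell renal carcinoma, after depletion of ribosomal RNA. The groups were VHL-negative RCC4 cells treated with 5 µM JQ1, VHL-negative cells with DMSO as solvent control, VHL-positive cells with 5 µM JQ1 and VHL-positive cells with DMSO, each with 3 libraries. VHL-negative cells had lost VHL, and VHL-positive cells were the same line with VHL put back. Both lines grew in glucose-rich medium with serum and geneticin. JQ1 is a BET bromodomain inhibitor, which the labels call a MYC inhibitor. How VHL was put back and how long JQ1 was given are not stated in the labels. Nor do they say that the replicates came from separate cultures, and the p-values then cover the spread between these libraries, which may be technical.

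Ribosomes are assembled in the nucleolus. RNA polymerase I transcribes the precursor of the ribosomal RNAs, snoRNPs (small nucleolar RNAs with their proteins) modify it, and large sets of assembly factors fold, cleave and export the small and large subunits. MYC is a textbook activator of this programme, and it is known to bind the E-box CACGTG, often close to the start sites of such genes.

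The hexamer CACGTG was searched in the promoter windows of RefSeq (GRCh38.p14), which run from 250 bases before to 50 bases after a gene's start. It reads the same on both strands. Windows were matched by symbol for 39 of the 45 genes, all except NOLC1, NOP58, RRP12, BOP1, RRS1 and DDX18. At least 1 match was found in 21 of the 39 (53.8%), against 8.77% of all 27305 genes with a window and 13.2% of tested genes averaging at least 10 CPM (counts scaled to a fixed library total). The genes were listed as MYC targets, so this share is a description of the list. The related E-box CAGCTG was found in 17.9% of the 39 windows and 21.1% of all windows. GACGTC, which has the same base composition as the searched hexamer, was found in 10.3% and 6.09%. The hexamers were counted separately, so that matches of one may overlap another, and a match of letters is not a measured site of binding. Of the 22 CACGTG matches, 8 began before the start and 14 after it, 20 of them within 40 bases. Matches after the start could not lie far from it, because the window ended 50 bases after it. Where a match lay in several windows of a gene, the nearest start was used. Positions in other genes were not compared, so a clustering at the start was not tested.

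Of the 13 genes that fell with JQ1 in both lines, 9 carried the motif. DKC1, NOP16, PPRC1 and WDR12 also fell in both lines, with no match in the window searched. The 9 are shown because they were called in both lines. Their matches are printed here 5′ to 3′ on the gene's strand, as 30 bases with the motif in capitals:
NME1 at chr17:51153579-51153608, plus strand: caagtgctgcgaacCACGTGggtcccgggc
GAR1 at chr4:109815781-109815810, plus strand: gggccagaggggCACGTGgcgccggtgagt
LTV1 at chr6:143843354-143843383, plus strand: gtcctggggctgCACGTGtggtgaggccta
MRTO4 at chr1:19251807-19251836, plus strand: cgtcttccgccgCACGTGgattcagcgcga
UTP20 at chr12:101280083-101280112, plus strand: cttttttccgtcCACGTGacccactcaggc
DDX21 at chr10:68956604-68956633, plus strand: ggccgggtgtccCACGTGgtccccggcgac
BYSL at chr6:41921515-41921544, plus strand: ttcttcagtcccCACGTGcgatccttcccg
MYBBP1A at chr17:4555340-4555369, minus strand: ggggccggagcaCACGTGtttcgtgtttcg
WDR43 at chr2:28894658-28894687, plus strand: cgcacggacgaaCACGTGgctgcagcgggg

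Another 8 genes, with 9 matches, carried the motif and passed the test with JQ1 in neither line: FBL, NOP14, ODC1, RRP9, NOP2, GNL2, GNL3 and LYAR. For comparison, the matches of FBL, NOP14 and ODC1 are printed, because these are the ones of the 8 described library by library. ODC1 held a pair:
FBL at chr19:39846356-39846385, minus strand: tgcgctcttttcCACGTGcgaaagccccgg
NOP14 at chr4:2963374-2963403, minus strand: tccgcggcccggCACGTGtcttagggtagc
ODC1 at chr2:10447990-10448019, minus strand: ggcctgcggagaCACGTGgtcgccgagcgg
ODC1 at chr2:10448024-10448053, minus strand: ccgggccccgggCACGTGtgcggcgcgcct

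**Figure D1:**
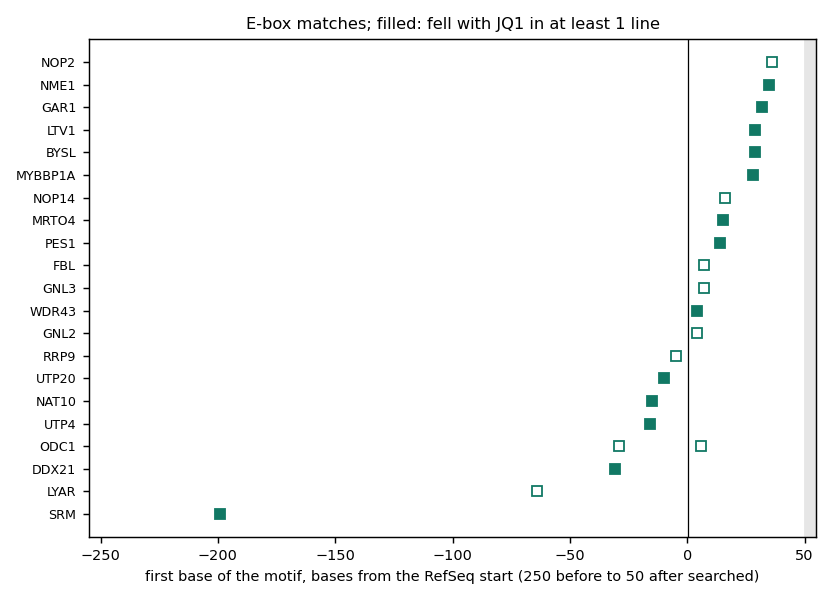
Position of each CACGTG match relative to the RefSeq start, in bases, for the 21 listed genes with a match; filled squares mark genes that fell with JQ1 in at least 1 line and open squares the others. Of the 22 matches, 20 lie within 40 bases of the start, and those of SRM and LYAR lie farther upstream. The search ended 50 bases after the start, and the nearest start was used for each match.

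Library totals ran from 15452949 to 32502310 counts. Levels are CPM on library sizes scaled by TMM, which corrects for a few very abundant genes, and changes are log2 fold changes. All adjusted p-values come from quasi-likelihood tests in edgeR, adjusted by Benjamini-Hochberg over all 20714 genes, and a gene is said to rise or fall where its adjusted p is under 0.05. PAX8 (192.5 to 722 CPM) and VIM (612 to 1785 CPM), markers of this carcinoma, were detected in every library, as were NNMT, KRT18 and CDH6. The marker CA9, a hypoxia-pathway target, ran from 24.1 to 97.8 CPM in VHL-negative libraries, against 0.0 to 0.946 CPM in VHL-positive libraries. By contrast, the endothelial markers PECAM1, CDH5 and VWF and the leukocyte markers PTPRC and CD3E stayed at or below 0.329 CPM. The endothelial marker ESAM reached 9.89 CPM and the leukocyte marker CSF1R 4.36 CPM. MYC RNA fell with JQ1 in VHL-negative cells (log2 -1.10 with SE 0.209 and adjusted p = 0.000869). In VHL-positive cells MYC differed by log2 -0.08 (adjusted p = 0.795). The difference between these JQ1 effects did not pass (log2 -1.01, adjusted p = 0.0852), and under DMSO MYC was higher in VHL-negative than in VHL-positive cells (log2 1.00, adjusted p = 0.00159).

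In VHL-negative cells 22 of the 45 ribosome biogenesis genes fell with JQ1 (48.9%), against 17.5% of all tested genes and 24.1% of those averaging at least 10 CPM. None of the 45 rose in edgeR's quasi-likelihood test, against 14.6% of all tested genes. At an unadjusted p under 0.05, 29 lay lower and 0 higher, with the shares over all genes not counted. DESeq2 called 24 lower and 0 higher, against 15.9% and 11.4% of all genes with an adjusted p. The median log2 change of the 45 was -0.51, against 0.03 over all tested genes and -0.09 over those averaging at least 10 CPM, and 43 of the 45 lay below 0. All 3 JQ1 libraries lay below all 3 DMSO libraries for 31 of the 45 genes (68.9%), against 22.3% of all tested genes. Of the 22 calls, 14 held in each of 12 leave-one-out fits. The number of calls was 14 without VHL-negative JQ1 replicate 3, where 12.0% of all genes fell. Leaving out JQ1 replicate 3 of both lines gave 11, where 10.3% of all genes fell. In bulk RNA, fewer cells of a type and less RNA per cell cannot be told apart.

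In VHL-positive cells 17 of the 45 genes fell with JQ1 (37.8%), against 16.5% of all tested genes and 17.1% of those averaging at least 10 CPM. Again none rose in edgeR's test, against 15.3% of all tested genes. At an unadjusted p under 0.05, 24 lay lower and 0 higher, with the shares over all genes not counted. DESeq2 called 17 lower and 0 higher, against 13.2% and 12.8% of all genes with an adjusted p. With library totals in place of TMM, which put the median of all genes at log2 -0.14, 23 of the 45 fell and 0 rose, when 19.3% of all genes fell. The median log2 change of the 45 was -0.28, against -0.03 over all tested genes and 0.07 over those averaging at least 10 CPM, and 40 of the 45 lay below 0. All JQ1 libraries lay below all DMSO libraries for 25 genes (55.6%), against 24.0% of all tested genes. The count rested more on single libraries than in VHL-negative cells. Replicate 2 of the VHL-positive DMSO libraries had the highest summed level of the 45 genes of all libraries, and without it 8 genes fell, when 13.2% of all genes did. Without replicate 1, 2 or 3 of the VHL-positive JQ1 libraries the count was 10, 9 or 10, when 11.0%, 12.1% and 11.2% of all genes fell. Leaving out JQ1 replicate 3 of both lines gave 7, when 9.84% of all genes fell. Of the 17 calls, 7 held in each of 12 leave-one-out fits, those of DKC1, GAR1, MRTO4, NME1, NOP16, PPRC1 and RRS1.

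**Figure D2:**
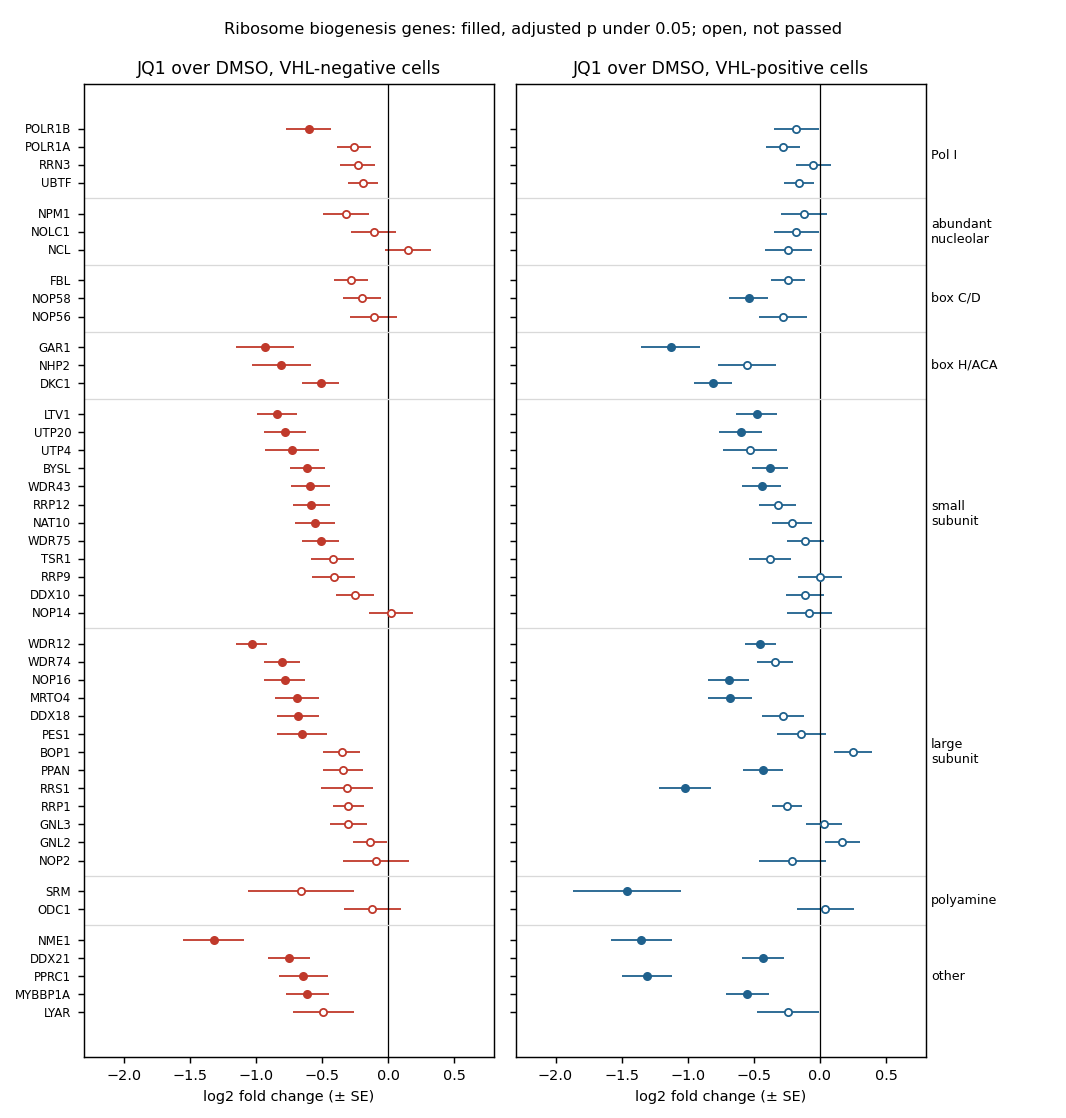
Log2 fold change of each of the 45 genes with JQ1 over DMSO in VHL-negative cells (left) and VHL-positive cells (right), grouped by role; points are estimates from 3 libraries per group, bars are SE, and filled points passed an adjusted p under 0.05. Filled points lie to the left of 0 in both panels, 22 in VHL-negative and 17 in VHL-positive cells.

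Together, 26 genes fell in at least 1 line and 13 in both, which is 59.1% of the 22 that fell in VHL-negative cells and 76.5% of the 17 that fell in VHL-positive cells. The same overlap over all tested genes was not counted, so these shares only describe the list. The 13 were NME1, PPRC1, DKC1, GAR1, LTV1, UTP20, WDR43, BYSL, WDR12, NOP16, MRTO4, MYBBP1A and DDX21. GAR1, MRTO4, NME1 and NOP16 were called in both lines in each of 12 leave-one-out fits. The 19 genes that passed in neither line were POLR1A, UBTF, RRN3, NCL, NPM1, NOLC1, FBL, NOP56, NOP14, RRP9, TSR1, DDX10, BOP1, NOP2, RRP1, GNL2, GNL3, ODC1 and LYAR. The 45 genes summed to 4062, 3220 and 3452 CPM in VHL-negative JQ1 libraries, against 4831, 4449 and 4511 CPM in VHL-negative DMSO libraries. In VHL-positive cells the sums were 3913, 3488 and 3636 CPM with JQ1, against 4046, 5469 and 4077 CPM with DMSO. The JQ1 sums lay below the DMSO sums in both lines, without overlap, and replicate 2 of the VHL-positive DMSO libraries stood well above the other two.

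NEAT1 and MALAT1, long RNAs that stay in the nucleus and serve here as a sign of RNA composition, rose with JQ1 in VHL-negative cells (log2 2.67 and 2.27) and in VHL-positive cells (log2 1.85 and 1.12). NEAT1 and MALAT1 together held 15589 to 36962 CPM in VHL-negative JQ1 libraries, against 3217 to 7113 CPM in VHL-negative DMSO libraries. With JQ1 they held 13180 to 15528 CPM in VHL-positive libraries, against 2858 to 8119 CPM with DMSO. Their lowest level was in replicate 2 of the VHL-positive DMSO libraries, where the 45 genes summed highest. Their part in the changes of the 45 genes was not tested. In a fit of protein-coding genes only, which leaves both RNAs out, 22 of the 45 genes fell in VHL-negative cells and 24 in VHL-positive cells, where 21.2% and 22.2% of all protein-coding genes fell.

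**Figure D3:**
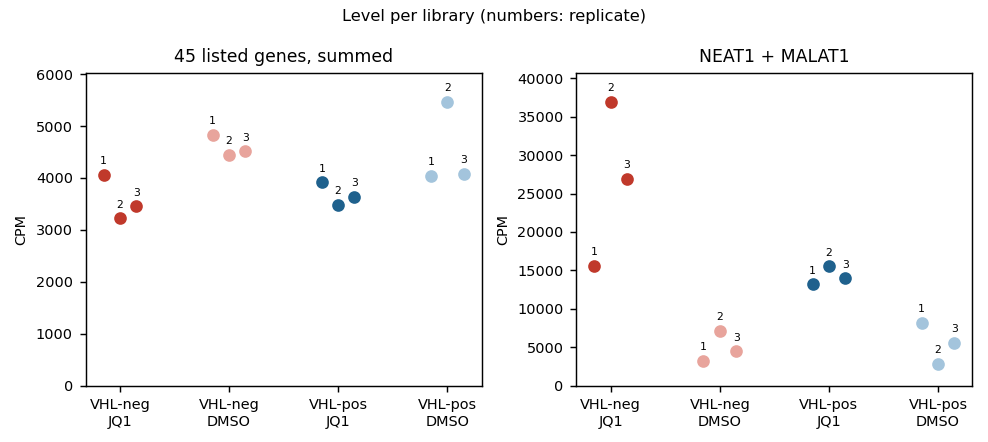
Summed level of the 45 genes (left) and of NEAT1 with MALAT1 (right), in CPM, for each library by group, with replicate numbers beside the points. The 45 genes sum to 3220 to 4062 CPM in VHL-negative JQ1 libraries, all below the 4449 to 4831 CPM of VHL-negative DMSO libraries, and replicate 2 of VHL-positive DMSO stands highest at 5469 CPM.

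Of 4 genes of RNA polymerase I and its factors, POLR1B fell in VHL-negative cells and none passed in VHL-positive cells. POLR1B (ENSG00000125630, GRCh38 chromosome 2, 112541915 to 112577150), a catalytic subunit, measured 98.2, 58.9 and 74.5 CPM in VHL-negative JQ1 libraries, against 119, 118 and 114 CPM in VHL-negative DMSO libraries. The JQ1 libraries were all lower, replicate 2 the lowest. The fall in VHL-negative cells (log2 -0.60 with SE 0.17 and adjusted p = 0.0137) lost its call when JQ1 replicate 2 (adjusted p = 0.0743) or 3 (adjusted p = 0.0662) was left out. POLR1B in VHL-positive cells measured 106, 97.1 and 97.5 CPM in VHL-positive JQ1 libraries, against 97.4, 139 and 104 CPM in VHL-positive DMSO libraries. The groups overlapped (log2 -0.18, adjusted p = 0.461). Leaving out DMSO replicate 2 gave log2 0.01. UBTF (ENSG00000108312, GRCh38 chromosome 17, 44205033 to 44221626), the factor that keeps ribosomal DNA open for transcription, measured 114, 104 and 102 CPM in VHL-negative JQ1 libraries, against 128, 113 and 123 CPM in VHL-negative DMSO libraries. UBTF in VHL-positive cells measured 127, 116 and 123 CPM in VHL-positive JQ1 libraries, against 140.3, 137 and 131 CPM in VHL-positive DMSO libraries. The groups overlapped in VHL-negative cells and were just separated in VHL-positive cells, and neither change passed (log2 -0.19, adjusted p = 0.212, and log2 -0.16, adjusted p = 0.297). POLR1A, the other catalytic subunit, differed by log2 -0.26 in VHL-negative and -0.28 in VHL-positive cells. RRN3, which brings the polymerase to its promoter, differed by -0.23 and -0.05 on the same scale. Neither of these genes passed the test in either line.

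None of the 3 abundant nucleolar proteins passed with JQ1 in either line. Per length, NCL led the 45 genes with a mean of 223 TPM (transcripts scaled to a fixed total, after division by exon length) over all libraries, followed by NPM1 at 185 TPM, ODC1 at 136 TPM and NOLC1 and FBL at 104 TPM each. NCL (ENSG00000115053, GRCh38 chromosome 2, 231453531 to 231483641), nucleolin, an RNA-binding protein of the nucleolus that also houses 3 snoRNA genes, measured 692, 606 and 602 CPM in VHL-negative JQ1 libraries, against 623, 615 and 473 CPM in VHL-negative DMSO libraries. NCL in VHL-positive cells measured 579.7, 523 and 481 CPM in VHL-positive JQ1 libraries, against 652, 758 and 457 CPM in VHL-positive DMSO libraries. JQ1 and DMSO libraries overlapped in both lines, and the widest spread was among VHL-positive DMSO libraries. The change was log2 0.15, adjusted p = 0.539 in VHL-negative cells and log2 -0.24, adjusted p = 0.332 in VHL-positive cells. NPM1 (ENSG00000181163, GRCh38 chromosome 5, 171387116 to 171411137), nucleophosmin, a histone and ribosome chaperone, measured 251, 177 and 192 CPM in VHL-negative JQ1 libraries, against 275, 233 and 265 CPM in VHL-negative DMSO libraries. NPM1 in VHL-positive cells measured 311, 275 and 307 CPM in VHL-positive JQ1 libraries, against 252, 417 and 303 CPM in VHL-positive DMSO libraries. Groups overlapped in both lines, and replicate 2 of the VHL-positive DMSO libraries was far above the rest. Neither change passed (log2 -0.32, adjusted p = 0.18, and log2 -0.12, adjusted p = 0.647). Leaving out JQ1 replicate 1, NPM1 passed in VHL-negative cells (log2 -0.49, adjusted p = 0.0419), and leaving out DMSO replicate 2 its value in VHL-positive cells was log2 0.12. NOLC1, a chaperone of snoRNPs, had log2 changes of -0.11 and -0.18.

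The 3 listed proteins of box H/ACA snoRNPs, which turn uridine into pseudouridine, all fell in VHL-negative cells and 2 of them in VHL-positive cells. Of the 3 listed proteins of box C/D snoRNPs, which methylate ribose, none fell in VHL-negative cells and 1, NOP58, fell in VHL-positive cells. The median change was log2 -0.81 for H/ACA in both lines, against -0.20 in VHL-negative and -0.28 in VHL-positive cells for C/D. With 3 genes in each class, the classes were not tested against each other. A further core H/ACA protein, NOP10, is not among the 45 genes and was singled out after its values were seen. NOP10 measured 63.2, 31.4 and 42.5 CPM in VHL-negative JQ1 libraries, against 76.0, 58.0 and 63.5 CPM in VHL-negative DMSO libraries. NOP10 in VHL-positive cells measured 75.1, 70.8 and 67.4 CPM in VHL-positive JQ1 libraries, against 49.7, 60.3 and 58.3 CPM in VHL-positive DMSO libraries. The groups overlapped in VHL-negative cells, where it just passed as lower with JQ1 (log2 -0.52, adjusted p = 0.0487), and in VHL-positive cells every JQ1 library lay above every DMSO library with no call (log2 0.34, adjusted p = 0.195). NOP10 so lay opposite in direction to the 3 listed H/ACA proteins in VHL-positive cells.

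GAR1 (ENSG00000109534, GRCh38 chromosome 4, 109815510 to 109824740), a core H/ACA protein, measured 3.79, 2.92 and 3.53 CPM in VHL-negative JQ1 libraries, against 5.67, 6.09 and 7.86 CPM in VHL-negative DMSO libraries. GAR1 in VHL-positive cells measured 3.82, 2.59 and 2.697 CPM in VHL-positive JQ1 libraries, against 8.40, 6.29 and 5.39 CPM in VHL-positive DMSO libraries. Every JQ1 library lay below every DMSO library in both lines. GAR1 was 1.90-fold lower with JQ1 in VHL-negative cells (log2 -0.93 with SE 0.221 and adjusted p = 0.00455). It was 2.19-fold lower in VHL-positive cells (log2 -1.13 with SE 0.223 and adjusted p = 0.00118). Its level was low, and per length only NOP2, whose counts are uncertain, lay below its 6.43 TPM. DKC1 (ENSG00000130826, GRCh38 chromosome X, 154762742 to 154777689), dyskerin, the pseudouridine synthase, measured 77.3, 62.5 and 66.5 CPM in VHL-negative JQ1 libraries, against 104, 91.8 and 97.6 CPM in VHL-negative DMSO libraries. DKC1 in VHL-positive cells measured 54.1, 46.5 and 51.2 CPM in VHL-positive JQ1 libraries, against 83.4, 108 and 75.0 CPM in VHL-positive DMSO libraries. No JQ1 library reached a DMSO library in either line. The fall passed in VHL-negative cells (log2 -0.51 with SE 0.142 and adjusted p = 0.0126) and in VHL-positive cells (log2 -0.81 with SE 0.143 and adjusted p = 0.000499). In VHL-negative cells the DKC1 call was lost without JQ1 replicate 2 (adjusted p = 0.0588), JQ1 replicate 3 (adjusted p = 0.0661) or DMSO replicate 1 (adjusted p = 0.0508).

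NHP2 (ENSG00000145912, GRCh38 chromosome 5, 178149460 to 178153967), another H/ACA core protein, measured 14.3, 8.94 and 10.3 CPM in VHL-negative JQ1 libraries, against 28.4, 13.7 and 17.2 CPM in VHL-negative DMSO libraries. NHP2 in VHL-positive cells measured 18.3, 19.6 and 18.2 CPM in VHL-positive JQ1 libraries, against 28.7, 28.6 and 24.9 CPM in VHL-positive DMSO libraries. Groups overlapped slightly in VHL-negative cells and were separate in VHL-positive cells. The change passed in VHL-negative cells (log2 -0.81 with SE 0.223 and adjusted p = 0.0111) but not in VHL-positive cells (log2 -0.55, adjusted p = 0.0651). The VHL-negative call was lost without JQ1 replicate 2 (adjusted p = 0.0551), JQ1 replicate 3 (adjusted p = 0.0557) or DMSO replicate 1 (log2 -0.46, adjusted p = 0.0894). The antisense gene RMND5B overlaps 27.4% of NHP2's exon bases, and the sources used here do not give the strand setting of the counting, so its counts are uncertain.

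FBL (ENSG00000105202, GRCh38 chromosome 19, 39834458 to 39846414), fibrillarin, the methyltransferase of box C/D snoRNPs, measured 94.2, 93.8 and 92.2 CPM in VHL-negative JQ1 libraries, against 119, 98.9 and 123 CPM in VHL-negative DMSO libraries. FBL in VHL-positive cells measured 67.7, 52.3 and 61.6 CPM in VHL-positive JQ1 libraries, against 77.5, 69.2 and 67.3 CPM in VHL-positive DMSO libraries. All JQ1 libraries were lower in VHL-negative cells, while the groups overlapped in VHL-positive cells. Neither change passed (log2 -0.28, adjusted p = 0.108, and log2 -0.24, adjusted p = 0.178), although without VHL-negative DMSO replicate 2 the VHL-negative change did (log2 -0.39, adjusted p = 0.0475). The core proteins NOP56 and NOP58 differed by log2 -0.11 and -0.20 in VHL-negative cells. In VHL-positive cells NOP56 differed by log2 -0.28, and NOP58 fell (log2 -0.54, adjusted p = 0.0101). The NOP58 call was lost without JQ1 replicate 2 (adjusted p = 0.0776) or DMSO replicate 2 (adjusted p = 0.0721) of the VHL-positive libraries. Introns of NOP56 hold 5 snoRNA genes and those of NOP58 hold 4.

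Assembly factors of the small subunit held the largest number of calls in VHL-negative cells, though the groups differ in size. Their share (66.7%) was below those of the box H/ACA proteins (100%) and of the 5 remaining listed genes (80%). Of 12 genes, 8 fell in VHL-negative cells (median log2 of the 12, -0.56) and 4 in VHL-positive cells (median -0.35). LTV1, UTP20, WDR43 and BYSL fell in both lines. RRP12, NAT10, WDR75 and UTP4 fell in VHL-negative cells, while TSR1, RRP9, DDX10 and NOP14 passed in neither line. LTV1 (ENSG00000135521, GRCh38 chromosome 6, 143843344 to 143863812), which travels with the pre-small subunit to the cytoplasm, measured 15.5, 12.7 and 14.5 CPM in VHL-negative JQ1 libraries, against 24.0, 24.7 and 27.7 CPM in VHL-negative DMSO libraries. LTV1 in VHL-positive cells measured 16.6, 14.9 and 15.6 CPM in VHL-positive JQ1 libraries, against 19.5, 27.4 and 18.9 CPM in VHL-positive DMSO libraries. The groups were separate in both lines, by a wider gap in VHL-negative cells. The fall was log2 -0.84 with SE 0.152 and adjusted p = 0.000595 in VHL-negative cells and log2 -0.48 with SE 0.152 and adjusted p = 0.0238 in VHL-positive cells. The VHL-positive call was lost without any of JQ1 replicates 1, 2 and 3 (adjusted p = 0.0603, 0.104 and 0.0908) and without DMSO replicate 2 (log2 -0.27, adjusted p = 0.168). LTV1 shares 34.8% of its exon bases with unnamed genes on its own strand, so its counts are uncertain.

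NAT10 (ENSG00000135372, GRCh38 chromosome 11, 34105602 to 34147670), an acetyltransferase of ribosomal and transfer RNA, measured 116, 77.6 and 92.9 CPM in VHL-negative JQ1 libraries, against 147, 132 and 141 CPM in VHL-negative DMSO libraries. NAT10 in VHL-positive cells measured 83.9, 75.0 and 80.1 CPM in VHL-positive JQ1 libraries, against 78.3, 108 and 91.1 CPM in VHL-positive DMSO libraries. JQ1 libraries were all lower in VHL-negative cells, and overlapped the DMSO libraries in VHL-positive cells. NAT10 fell in VHL-negative cells (log2 -0.55 with SE 0.152 and adjusted p = 0.0117) and did not pass in VHL-positive cells (log2 -0.21, adjusted p = 0.31). Its call was lost without JQ1 replicate 2 (adjusted p = 0.0643) or 3 (adjusted p = 0.0595) of the VHL-negative libraries. NOP14 (ENSG00000087269, GRCh38 chromosome 4, 2937933 to 2963385), a factor of the early small subunit, measured 61.3, 44.9 and 51.8 CPM in VHL-negative JQ1 libraries, against 63.4, 51.8 and 41.2 CPM in VHL-negative DMSO libraries. NOP14 in VHL-positive cells measured 29.4, 32.2 and 29.2 CPM in VHL-positive JQ1 libraries, against 30.4, 37.8 and 27.9 CPM in VHL-positive DMSO libraries. JQ1 and DMSO libraries overlapped in both lines (log2 0.02, adjusted p = 0.95, and log2 -0.08, adjusted p = 0.762). The antisense gene NOP14-AS1 overlaps 17.1% of its exon bases.

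UTP20, a scaffold of the processome that folds early pre-ribosomal RNA, fell in VHL-negative cells to 94.5 ± 16.3 CPM, against 163 ± 5.57 CPM with DMSO (SD). The change was log2 -0.78 with SE 0.162 and adjusted p = 0.00162. Its fall in VHL-positive cells (log2 -0.60, adjusted p = 0.00946) was lost without JQ1 replicate 2 or 3 or DMSO replicate 2 of that line (adjusted p up to 0.0758). The processome proteins WDR43 (log2 -0.59, adjusted p = 0.0062), WDR75 (log2 -0.51, adjusted p = 0.0106) and UTP4 (log2 -0.73, adjusted p = 0.0127) fell in VHL-negative cells. WDR43 fell in VHL-positive cells too (log2 -0.44, adjusted p = 0.0329), a call lost without any of the VHL-positive JQ1 replicates, without DMSO replicate 2 (log2 -0.25, adjusted p = 0.216) or without VHL-negative JQ1 replicate 3 (adjusted p = 0.0604). WDR75 and UTP4 lost their calls without JQ1 replicate 2 (adjusted p = 0.0537 and 0.0661) or 3 (adjusted p = 0.0512 and 0.0502) of the VHL-negative libraries, and UTP4 also without DMSO replicate 1 (adjusted p = 0.0803). BYSL, bystin, which joins late small subunit precursors, fell in VHL-negative cells (log2 -0.61, adjusted p = 0.00253) and in VHL-positive cells (log2 -0.38, adjusted p = 0.0425). The VHL-positive call of BYSL was lost in 8 of 12 leave-one-out fits, with log2 -0.26 and adjusted p = 0.206 without DMSO replicate 2. RRP12, a factor of subunit export, fell in VHL-negative cells (log2 -0.58, adjusted p = 0.00444).

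Of 13 assembly factors of the large subunit, 6 fell in VHL-negative cells (median log2 of the 13, -0.35) and 5 in VHL-positive cells (median -0.28). WDR12, NOP16 and MRTO4 fell in both lines. WDR74, DDX18 and PES1 fell in VHL-negative cells and RRS1 and PPAN in VHL-positive cells. BOP1, NOP2, RRP1, GNL2 and GNL3 passed in neither line.

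PES1, BOP1 and WDR12 form the PeBoW complex, which acts in the processing of large subunit RNA. WDR12 (ENSG00000138442, GRCh38 chromosome 2, 202874782 to 203014798) measured 29.5, 23.5 and 26.3 CPM in VHL-negative JQ1 libraries, against 52.9, 53.3 and 56.2 CPM in VHL-negative DMSO libraries. WDR12 in VHL-positive cells measured 38.4, 35.3 and 37.0 CPM in VHL-positive JQ1 libraries, against 49.9, 52.1 and 48.9 CPM in VHL-positive DMSO libraries. Spread within groups was small, and JQ1 libraries lay below DMSO libraries in both lines. WDR12 was 2.04-fold lower in VHL-negative cells (log2 -1.03 with SE 0.117 and adjusted p = 8.89e-06), the smallest p of the 45 genes there. In VHL-positive cells it was 1.36-fold lower (log2 -0.45 with SE 0.116 and adjusted p = 0.00782), a call lost without JQ1 replicate 2 (adjusted p = 0.0552). BOP1 (ENSG00000261236, GRCh38 chromosome 8, 144262102 to 144291370) measured 87.4, 63.0 and 74.9 CPM in VHL-negative JQ1 libraries, against 96.0, 86.9 and 105 CPM in VHL-negative DMSO libraries. BOP1 in VHL-positive cells measured 96.6, 86.1 and 94.5 CPM in VHL-positive JQ1 libraries, against 67.4, 87.3 and 78.9 CPM in VHL-positive DMSO libraries. The groups overlapped in both lines. BOP1 passed in neither (VHL-negative log2 -0.35, adjusted p = 0.0684, VHL-positive log2 0.25, adjusted p = 0.204). PES1 fell in VHL-negative cells (log2 -0.65, adjusted p = 0.0148), but not without JQ1 replicate 2 or 3 or DMSO replicate 1 (adjusted p = 0.0782, 0.076 and 0.0688).

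MRTO4 (ENSG00000053372, GRCh38 chromosome 1, 19251539 to 19260128), a factor that holds the place of the ribosomal stalk, measured 44.2, 31.4 and 36.0 CPM in VHL-negative JQ1 libraries, against 64.8, 55.7 and 60.0 CPM in VHL-negative DMSO libraries. MRTO4 in VHL-positive cells measured 28.1, 24.3 and 27.3 CPM in VHL-positive JQ1 libraries, against 34.4, 54.5 and 39.2 CPM in VHL-positive DMSO libraries. No JQ1 library overlapped a DMSO library in either line. The fall was nearly the same in both, log2 -0.69 with SE 0.166 and adjusted p = 0.00483 in VHL-negative cells and log2 -0.68 with SE 0.168 and adjusted p = 0.00548 in VHL-positive cells. WDR74 (ENSG00000133316, GRCh38 chromosome 11, 62832342 to 62841809), which acts with a helicase in nucleolar maturation, measured 18.6, 14.8 and 14.7 CPM in VHL-negative JQ1 libraries, against 28.6, 26.6 and 28.6 CPM in VHL-negative DMSO libraries. WDR74 in VHL-positive cells measured 19.3, 18.9 and 20.4 CPM in VHL-positive JQ1 libraries, against 21.5, 28.2 and 24.2 CPM in VHL-positive DMSO libraries. JQ1 libraries were all below DMSO libraries in both lines. WDR74 fell in VHL-negative cells (log2 -0.80 with SE 0.136 and adjusted p = 0.000352) and did not pass in VHL-positive cells (log2 -0.34, adjusted p = 0.0694). Other genes, among them the small nuclear RNA gene RNU2-2P, overlap 22.3% of its exon bases.

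RRS1 (ENSG00000179041, GRCh38 chromosome 8, 66429028 to 66430733), which helps to bring a small ribosomal RNA into the large subunit, measured 11.0, 18.3 and 14.5 CPM in VHL-negative JQ1 libraries, against 17.0, 15.8 and 21.1 CPM in VHL-negative DMSO libraries. RRS1 in VHL-positive cells measured 13.2, 10.4 and 11.7 CPM in VHL-positive JQ1 libraries, against 28.9, 24.5 and 18.3 CPM in VHL-positive DMSO libraries. The groups overlapped in VHL-negative cells and were separate in VHL-positive cells. RRS1 did not pass in VHL-negative cells (log2 -0.31, adjusted p = 0.253) and was 2.03-fold lower in VHL-positive cells (log2 -1.02 with SE 0.199 and adjusted p = 0.0011). An unnamed gene on the same strand overlaps 11.4% of its exon bases. NOP16 fell in both lines (log2 -0.78, adjusted p = 0.00119, and log2 -0.69, adjusted p = 0.00298), with 20% of its exon bases overlapped by antisense genes. DDX18, an RNA helicase, fell in VHL-negative cells (log2 -0.68, adjusted p = 0.00386). PPAN fell in VHL-positive cells (log2 -0.43, adjusted p = 0.0412), but its read-through gene PPAN-P2RY11 and P2RY11 share 59.8% of its exon bases, and the call was lost in 8 of 12 leave-one-out fits (adjusted p up to 0.166). The GTPases GNL2 and GNL3 (nucleostemin) differed by log2 -0.14 and -0.30 in VHL-negative cells and 0.17 and 0.03 in VHL-positive cells. RRP1 differed by -0.30 and -0.25 on the log2 scale. NOP2, an RNA methyltransferase at 1.04 TPM the lowest of the 45 genes, differed by -0.09 and -0.21. It shares 54.4% of its exon bases with an unnamed gene on its own strand, so its counts and its place as lowest are uncertain.

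Polyamine synthesis is represented by ODC1, ornithine decarboxylase, which makes putrescine, and SRM, spermidine synthase. SRM (ENSG00000116649, GRCh38 chromosome 1, 11054584 to 11060024) measured 13.4, 20.7 and 18.5 CPM in VHL-negative JQ1 libraries, against 53.7, 16.0 and 13.1 CPM in VHL-negative DMSO libraries. SRM in VHL-positive cells measured 9.28, 12.2 and 10.4 CPM in VHL-positive JQ1 libraries, against 23.5, 42.6 and 22.0 CPM in VHL-positive DMSO libraries. In VHL-negative cells replicate 1 of the DMSO libraries stood far above all others and the remaining libraries overlapped, while in VHL-positive cells the groups were separate. Mitochondrial genes held 25.3% of the counts of VHL-negative DMSO replicate 1, against 13.1% and 9.9% in replicates 2 and 3 of that group. The part of this in its SRM level was not tested. SRM fell 2.75-fold in VHL-positive cells (log2 -1.46 with SE 0.411 and adjusted p = 0.0127), the largest fall of the 45 genes there, but the call was lost without JQ1 replicate 1 (log2 -1.35, adjusted p = 0.0551) or DMSO replicate 2 (log2 -1.08, adjusted p = 0.0697). It did not pass in VHL-negative cells (log2 -0.66, adjusted p = 0.225), where the change without DMSO replicate 1 was log2 0.26. With no filter on low counts the same gene passed there (log2 -0.72, adjusted p = 0.000579). ODC1 (ENSG00000115758, GRCh38 chromosome 2, 10439968 to 10448504) measured 181, 110.2 and 149 CPM in VHL-negative JQ1 libraries, against 166, 142 and 172 CPM in VHL-negative DMSO libraries. ODC1 in VHL-positive cells measured 171, 141 and 159.6 CPM in VHL-positive JQ1 libraries, against 117, 218 and 122 CPM in VHL-positive DMSO libraries. JQ1 and DMSO libraries overlapped in both lines, and replicate 2 of VHL-positive DMSO stood apart. ODC1 passed in neither line (log2 -0.12, adjusted p = 0.692, and log2 0.04, adjusted p = 0.905). Its sign changed in VHL-negative cells without JQ1 replicate 2 (log2 0.06), and in VHL-positive cells without JQ1 replicate 1, DMSO replicate 1 or DMSO replicate 3 (log2 -0.01, -0.11 and -0.09) and with library totals in place of TMM (log2 -0.05).

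Of the 5 remaining listed genes, 4 fell in each line, NME1, PPRC1, MYBBP1A and DDX21. NME1 (ENSG00000239672, GRCh38 chromosome 17, 51153536 to 51162428), a nucleoside diphosphate kinase, measured 35.3, 24.3 and 24.2 CPM in VHL-negative JQ1 libraries, against 102, 50.5 and 57.7 CPM in VHL-negative DMSO libraries. NME1 in VHL-positive cells measured 26.1, 30.2 and 28.9 CPM in VHL-positive JQ1 libraries, against 62.8, 86.6 and 67.3 CPM in VHL-positive DMSO libraries. All JQ1 libraries lay below all DMSO libraries in both lines, although DMSO replicate 1 of VHL-negative cells was well above its fellows. It is the library with 25.3% of its counts in mitochondrial genes. NME1 was 2.50-fold lower in VHL-negative cells (log2 -1.32 with SE 0.229 and adjusted p = 0.000393), the largest fall of the 45 genes there. It was 2.54-fold lower in VHL-positive cells (log2 -1.35 with SE 0.229 and adjusted p = 0.000361). The read-through gene NME1-NME2 shares 18.6% of its exon bases, so reads could be split between them.

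PPRC1 (ENSG00000148840, GRCh38 chromosome 10, 102132994 to 102150331), a transcriptional coactivator of mitochondrial genes, measured 58.8, 83.2 and 70.0 CPM in VHL-negative JQ1 libraries, against 126, 105 and 99.4 CPM in VHL-negative DMSO libraries. PPRC1 in VHL-positive cells measured 40.8, 48.6 and 49.3 CPM in VHL-positive JQ1 libraries, against 87.5, 152 and 104 CPM in VHL-positive DMSO libraries. Groups did not overlap in either line, and VHL-positive JQ1 libraries were the lowest of all. The fall was log2 -0.64 with SE 0.186 and adjusted p = 0.0153 in VHL-negative cells and log2 -1.31 with SE 0.189 and adjusted p = 9.26e-05 in VHL-positive cells. In VHL-negative cells the call was lost without JQ1 replicate 3 (adjusted p = 0.0545) or DMSO replicate 1 (adjusted p = 0.0643). DDX21, a nucleolar helicase that couples RNA polymerases I and II to rRNA processing, fell in VHL-negative cells (log2 -0.75, adjusted p = 0.00208) and just passed in VHL-positive cells (log2 -0.43, adjusted p = 0.0486). The VHL-positive call of DDX21 was lost in 8 of 12 leave-one-out fits (adjusted p up to 0.214). MYBBP1A, a nucleolar regulator of transcription, fell in both lines (log2 -0.61, adjusted p = 0.01, and log2 -0.55, adjusted p = 0.0169). In VHL-positive cells its call was lost without JQ1 replicate 1 or 3 or DMSO replicate 2 (adjusted p = 0.0838, 0.0541 and 0.127, the last with log2 -0.29). LYAR, a nucleolar zinc finger protein, passed in neither line (log2 -0.49, adjusted p = 0.121, and log2 -0.24, adjusted p = 0.481).

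**Figure D4:**
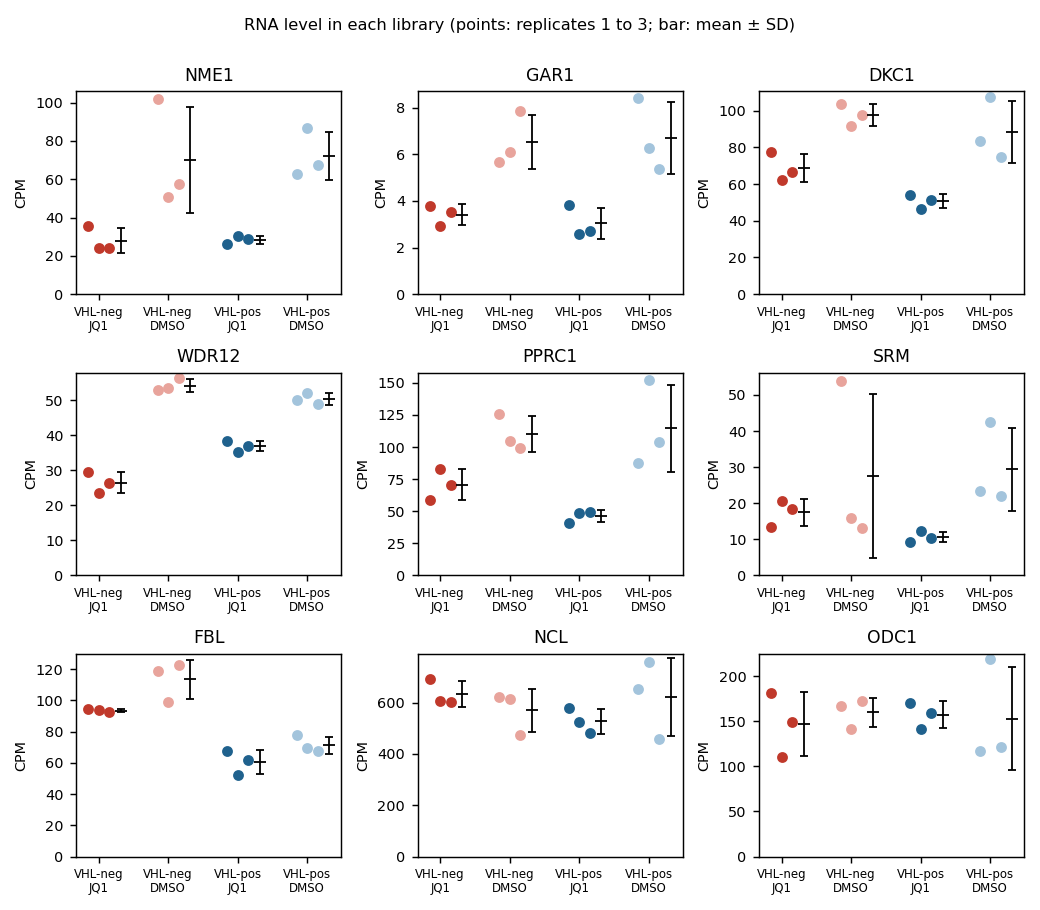
Level in CPM of 9 of the genes in each library, by group, with the mean ± SD of 3 libraries beside the points. NME1, GAR1, DKC1, WDR12 and PPRC1 lie lower in every JQ1 library than in every DMSO library of the same line, whereas NCL and ODC1 overlap between JQ1 and DMSO in both lines, and FBL is higher in VHL-negative libraries.

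Genes with and without the CACGTG motif both fell. In VHL-negative cells 12 of the 21 listed genes with a match fell (57.1%, median log2 -0.61) and 8 of the 18 without (44.4%, median -0.38). In VHL-positive cells 10 of the 21 fell (47.6%, median -0.38) and 5 of the 18 (27.8%, median -0.28). Over all tested genes with a window, 26.4% of those with the motif and 21.2% of those without fell in VHL-negative cells, and 20.6% and 18.1% in VHL-positive cells. NME1, with the motif 35 bases after its start, fell in both lines, while ODC1, with 2 matches, and FBL, with a match at base 7, passed in neither. WDR12 and DKC1 fell in both lines with no match in the window searched.

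Other genes of the same pathway were read from lists of 111 further ribosome biogenesis and polyamine genes, of which 110 were tested. In VHL-negative cells 45 of the 110 fell (40.9%, against 17.5% of all tested genes and 24.1% of those averaging at least 10 CPM) and 2 rose (median log2 -0.38). In VHL-positive cells 24 fell (21.8%, against 16.5% and 17.1%) and 6 rose (median -0.17), a share of falls near that over all genes. By list, falls in VHL-negative cells numbered 6 of 11 further genes of the polymerase I machinery, 4 of 11 snoRNP and assembly genes, 18 of 40 small subunit factors, 16 of 40 large subunit factors and 1 of 8 polyamine genes. In VHL-positive cells they numbered 5, 2, 7, 8 and 2 of the same lists, and the shares of the snoRNP (18.2%), small subunit (17.5%) and large subunit (20%) lists were near that over all genes. BRIX1, a large subunit factor, fell in VHL-negative cells to 13.6 ± 1.71 CPM, against 30.3 ± 1.99 CPM with DMSO (log2 -1.16, adjusted p = 5.01e-05). It fell in VHL-positive cells too (log2 -0.92, adjusted p = 0.000348), as did RRP15 of the same list (log2 -0.94, adjusted p = 7.68e-05, and log2 -0.80, adjusted p = 0.000338).

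The small subunit factor KRR1 fell in both lines (log2 -0.87, adjusted p = 0.000173, and log2 -0.77, adjusted p = 0.000495), WDR46 in VHL-negative cells (log2 -0.93, adjusted p = 0.000558) and the methyltransferase EMG1 in VHL-positive cells (log2 -0.50, adjusted p = 0.00931). TCOF1, treacle, which links polymerase I to snoRNPs, measured 62.8, 77.9 and 68.8 CPM in VHL-negative JQ1 libraries, against 145, 127 and 114 CPM in VHL-negative DMSO libraries. TCOF1 in VHL-positive cells measured 55.6, 62.2 and 62.2 CPM in VHL-positive JQ1 libraries, against 134, 239 and 148 CPM in VHL-positive DMSO libraries. No JQ1 library reached a DMSO library in either line, and the fall passed in both (log2 -0.88, adjusted p = 0.00177, and log2 -1.53, adjusted p = 2.09e-05). ZNHIT6, a box C/D assembly factor, fell by less (log2 -0.45, adjusted p = 0.0112, and log2 -0.46, adjusted p = 0.00963). In the polymerase I machinery TAF1C (log2 -0.64, adjusted p = 0.00268) and the subunit POLR1H (log2 -0.84, adjusted p = 0.00391) fell in VHL-negative cells, and TTF1 (log2 -0.46, adjusted p = 0.0236) and TAF1A (log2 -0.55, adjusted p = 0.0243) in VHL-positive cells.

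Among polyamine genes, SAT1, the acetyltransferase that starts polyamine breakdown, measured 154, 104 and 127 CPM in VHL-negative JQ1 libraries, against 61.1, 60.6 and 62.8 CPM in VHL-negative DMSO libraries. SAT1 in VHL-positive cells measured 52.7, 72.9 and 60.4 CPM in VHL-positive JQ1 libraries, against 20.2, 29.5 and 27.2 CPM in VHL-positive DMSO libraries. All JQ1 libraries lay above all DMSO libraries in both lines. SAT1 rose in both (log2 1.06 with SE 0.169 and adjusted p = 0.000193, and log2 1.27 with SE 0.172 and adjusted p = 5.17e-05). SMOX, spermine oxidase, fell in VHL-negative cells (log2 -0.64, adjusted p = 0.0182), and OAZ2, an antizyme that directs ornithine decarboxylase to degradation, rose in VHL-positive cells (log2 0.55, adjusted p = 0.00351).

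In the authors' deposited tables, made with DESeq2, 24 of the 45 genes fell with JQ1 in VHL-negative cells and 17 in VHL-positive cells, and none rose. Among all genes with an adjusted p there, 15.7% fell in VHL-negative cells and 13.0% in VHL-positive cells.

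Without drug, VHL status went with small differences in these genes. Under DMSO 5 of the 45 genes were higher in VHL-negative than in VHL-positive cells (11.1%), against 14.8% of all tested genes, and none was lower in edgeR's test, against 15.9%. At an unadjusted p under 0.05, 9 were higher and 3 lower, with the shares over all genes not counted. DESeq2 called 5 higher and 0 lower, against 11.1% and 11.6% of all genes with an adjusted p. The median difference was log2 0.06, against 0.00 over all tested genes. Among genes averaging at least 10 CPM, 18.7% were higher and 16.0% lower. The share of the 45 called higher was below that over all genes and over genes of like level. It is thus no result about these genes as a group. FBL and NOP14 differed most. FBL was higher in VHL-negative cells (log2 0.67 with SE 0.129 and adjusted p = 0.000841), with all its VHL-negative DMSO libraries above all VHL-positive ones. NOP14 was likewise higher without overlap (log2 0.70 with SE 0.167 and adjusted p = 0.00419), as were NAT10 (log2 0.60 with SE 0.152 and adjusted p = 0.0066), MRTO4 (log2 0.50 with SE 0.165 and adjusted p = 0.0319) and GNL3 (log2 0.49, adjusted p = 0.0123). FBL, NOP14 and NAT10 kept the call in each of 12 leave-one-out fits. GNL3 lost it without VHL-positive DMSO replicate 3 (adjusted p = 0.072), and MRTO4 in 5 of them, with log2 0.36 and adjusted p = 0.142 without VHL-positive DMSO replicate 1. Without VHL-positive DMSO replicate 2 the number called higher was 9, and without replicate 3 it was 3, when 14.4% and 10.5% of all genes were. Without VHL-negative DMSO replicate 1 or VHL-positive DMSO replicate 1, 2 genes were called lower, and without VHL-positive DMSO replicate 3, 1 was. Of all genes 13.9%, 13.2% and 12.6% were called lower in these fits.

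Under JQ1, 6 of the 45 genes were higher in VHL-negative than in VHL-positive cells (13.3%, against 19.7% of all tested genes) and 7 were lower (15.6%, against 21.2%). These shares were below those over all genes, and the median difference was log2 -0.01. Among genes averaging at least 10 CPM, 16.6% were higher and 31.0% lower, with a median of log2 -0.13. With library totals in place of TMM, which put the median of all genes at log2 0.19 against 0.03, 10 were higher and 2 lower, when 24.9% and 15.2% of all genes were. NOP14 and FBL were again higher in VHL-negative cells (log2 0.80 with SE 0.168 and adjusted p = 0.00138, and log2 0.63 with SE 0.129 and adjusted p = 0.0012). PPRC1 was higher (log2 0.61 with SE 0.188 and adjusted p = 0.0165), as were MRTO4 (0.49), DKC1 (0.44) and PPAN (0.42) on the log2 scale. NHP2 was lower without overlap (log2 -0.73 with SE 0.224 and adjusted p = 0.0157). RRP12 (-0.60), NPM1 (-0.53), UTP20 (-0.53), WDR12 (-0.48), GNL2 (-0.43) and RRN3 (-0.42) were lower by these log2 differences. Of the 13 calls, those of FBL, NOP14, RRP12 and WDR12 held in each of 12 leave-one-out fits. The number called lower was 12 without VHL-negative JQ1 replicate 1, when 23.5% of all genes were. It was 2 without replicate 2 or replicate 3 of that group and 3 without VHL-positive JQ1 replicate 1, when 15.4% to 16.5% of all genes were. The number called higher was 3 without VHL-negative JQ1 replicate 3 and without each VHL-positive JQ1 replicate, when 13.4% to 15.2% of all genes were. NHP2 was not called without VHL-negative JQ1 replicate 2 (adjusted p = 0.0704) or 3 (adjusted p = 0.0659), nor PPRC1 without VHL-negative JQ1 replicate 2 (adjusted p = 0.0733) or VHL-positive JQ1 replicate 1 (adjusted p = 0.0852).

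**Figure D5:**
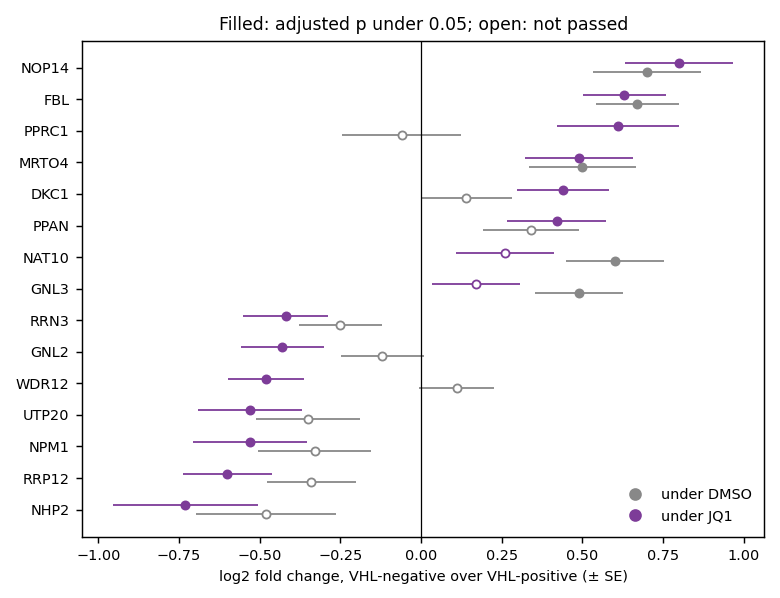
Log2 fold change of VHL-negative over VHL-positive cells, with SE, for the 15 genes called under DMSO (grey) or JQ1 (purple); filled points passed an adjusted p under 0.05. NOP14, FBL and MRTO4 lie to the right of 0 under both treatments with filled points, and NHP2 lies farthest to the left under JQ1.

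The difference between the JQ1 effects in VHL-negative and VHL-positive cells was tested directly, and none of the 45 genes passed in edgeR's test, against 1.21% of all tested genes. At an unadjusted p under 0.05, 2 lay higher and 3 lower, with the shares over all genes not counted. DESeq2 called 0 higher and 2 lower, against 2.63% and 5.85% of all genes with an adjusted p. The median difference, VHL-negative minus VHL-positive, was log2 -0.15, against 0.01 over all tested genes and -0.19 over those averaging at least 10 CPM. It was thus no lower than among genes of like level. The genes with the smallest p were WDR12 (log2 -0.58 with SE 0.164 and adjusted p = 0.0793), BOP1 (log2 -0.60 with SE 0.2 and adjusted p = 0.115) and RRS1 (log2 0.71 with SE 0.28 and adjusted p = 0.159). By these estimates the JQ1 change was lower in VHL-negative cells for WDR12 and BOP1 and lower in VHL-positive cells for RRS1. WDR12 and BOP1 passed in DESeq2 (log2 -0.62, adjusted p = 0.00758, and log2 -0.63, adjusted p = 0.0491), where 8.48% of all genes with an adjusted p passed and 5.85% as lower, a larger share than among the 45. Without VHL-negative JQ1 replicate 1, 7 of the 45 genes passed as lower and 1 as higher, but 10.2% of all genes then passed as lower and 16.2% in either direction, so these counts are no result about the 45. WDR12 (log2 -0.70, adjusted p = 0.0128), BOP1 (log2 -0.75, adjusted p = 0.0197) and RRS1 (log2 0.86, adjusted p = 0.0384) were among the 8. Without VHL-negative DMSO replicate 1, 1 passed as higher, when 0.295% of all genes did. A p that misses the threshold does not show that both lines responded alike.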

How the data were processed

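The authors deposited a table of raw counts per Ensembl gene for 12 libraries. Named in the submitters' processing notes are the build GRCh38, featureCounts, Subread 2.0.3, STAR 2.7.8 and DESeq2 1.30.1. The sources used here do not give their order or the strand setting. For each line the authors deposited a table of JQ1 changes, which gives per gene a log2 fold change with its error, a test statistic (a score), p-values before and after adjustment, and a mean of another kind (other), counts divided by size factors.

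Counts were fitted with edgeR 4.0.16, on limma 3.58.1 and R 4.3.3, using TMM scaling, a filter on low counts by group that kept 20714 genes with 99.87% of counts, 1 mean for each of the 4 groups, and quasi-likelihood tests at an adjusted p under 0.05. TPM used exon lengths and positions of GENCODE release 29. Intervals cover the spread between libraries only.

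The members and gene lists were chosen with earlier results of these data known. Values per library are given for NCL, NPM1, FBL, DKC1, UBTF, POLR1B, SRM and ODC1, for the 6 largest called changes with JQ1 in each line, for the 4 largest called VHL differences under each treatment and for the 3 smallest p of the difference between JQ1 effects. From the other lists, the 2 called genes with the smallest p per list and line are named.

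The labels do not say that a replicate number marks a shared culture or day. Deviations of same-numbered libraries correlated at -0.26 to 0.335, and those of other pairs at -0.381 to 0.203. Between VHL-negative JQ1 and DMSO libraries, same-numbered pairs correlated at 0.274, 0.335 and 0.00886. Between the JQ1 libraries of both lines they correlated at 0.243, 0.165 and 0.0116. Some pairing was therefore not excluded. Alternatives were median-of-ratios factors, totals alone, other filters, protein-coding genes only, DESeq2 1.42.0, only the groups compared, a replicate block and leaving out libraries. The fit was tested on simulated counts with known changes. For JQ1 in VHL-negative cells it called 25.4% of 1.5-fold and 74.6% of 2-fold changes. For the difference between JQ1 effects it called 0.0% of 1.5-fold and 32.8% of 2-fold changes. Changes of 1.5-fold were thus mostly missed in the simulation. Only 67 genes were given such a change there, and changes were put into VHL-negative JQ1 libraries alone. In the data 32.1% of all tested genes were called for JQ1 in VHL-negative cells, so the cut-off on p differed. The simulated shares therefore need not hold for the data. A gene without a call may still have changed.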

Additional observations from a re-analysis of the deposited data

How the results depend on the processing

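The numbers of genes called, out of 45, moved by more than 1.5 times in these settings. Leaving out JQ1 replicate 3 of both lines, 11 fell with JQ1 in VHL-negative cells and 7 in VHL-positive cells. Of all genes 10.3% and 9.84% fell in that fit. Under JQ1 2 were then higher and 0 lower in VHL-negative than in VHL-positive cells, when 10.1% and 12.1% of all genes were. With library totals alone, 10 were higher and 2 lower under JQ1, when 24.9% and 15.2% of all genes were. With protein-coding genes only, 10 were higher under JQ1 and 2 lower under DMSO, when 23.8% and 21.2% of all protein-coding genes were. With a filter of 1 CPM in 3 libraries, 1 was lower under DMSO, when 18.6% of all genes were. With the replicate block, 1 was lower under DMSO, when 15.5% of all genes were. The falls with JQ1 stayed at 22 and 17 genes, when 17.5% and 16.1% of all genes fell. DESeq2 called 2 lower for the difference between JQ1 effects, when it called 5.85% of all genes with an adjusted p lower. An alternative chosen after seeing the data left out the DMSO library of each line with the highest summed level of the 45 genes (VHL-negative replicate 1 and VHL-positive replicate 2). Then 10 fell with JQ1 in VHL-positive cells, 9 were higher and 2 lower in VHL-negative cells under DMSO, and 1 was higher for the difference. Leaving out 1 library in turn gave 14 to 27 falls with JQ1 in VHL-negative cells and 8 to 19 in VHL-positive cells, 3 to 9 higher and 0 to 2 lower under DMSO, 3 to 7 higher and 2 to 12 lower under JQ1, and 0 to 1 higher and 0 to 7 lower for the difference. The median changes of the 45 genes with JQ1 ran from log2 -0.58 to -0.42 in VHL-negative cells and from -0.42 to -0.17 in VHL-positive cells over these fits. Over the same fits 12.0% to 20.4% of all genes fell with JQ1 in VHL-negative cells and 11.0% to 17.1% in VHL-positive cells. Under DMSO 10.5% to 16.0% of all genes were higher and 12.6% to 16.8% lower. Under JQ1 13.4% to 20.9% were higher and 15.4% to 23.5% lower. For the difference 0.0787% to 5.99% were higher and 0.12% to 10.2% lower. The causes of these shifts were not tested. With no filter on low counts SRM passed in VHL-negative cells (log2 -0.72, adjusted p = 0.000579). In VHL-positive cells that setting ended the calls of WDR12 (adjusted p = 0.0535), WDR43 (0.0585), DDX21 (0.066), BYSL (0.134) and PPAN (0.142), and under JQ1 those of DKC1 (0.0728) and PPAN (0.19) between the lines. The block ended the VHL-positive call of DDX21 (adjusted p = 0.065). Under JQ1, library totals alone ended those of UTP20, WDR12, NPM1, GNL2 and RRN3 (adjusted p = 0.0527 to 0.165), DESeq2 that of PPAN (adjusted p = 0.0576), and under DMSO a fit of only the groups compared that of MRTO4 (adjusted p = 0.0581). Some genes that did not pass the test changed sign. Leaving out 1 library in turn, SRM ran from log2 -1.01 to 0.26 and ODC1 from -0.31 to 0.06 in VHL-negative cells, and POLR1B from -0.28 to 0.01, NPM1 from -0.27 to 0.12 and ODC1 from -0.11 to 0.41 in VHL-positive cells. With library totals alone ODC1 was at log2 -0.05 there. The alternative added later gave the highest of these values again for SRM, POLR1B and NPM1. The block was fitted because groups share replicate numbers. Same-numbered pairs did not correlate for all replicates in any set, those of replicate 3 lying at -0.0282 to 0.0184. No spike-ins were used here, so change in RNA per cell is not measured.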
